A study of Sus scrofa with 37 samples.

Results

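The 10 genes described here act in autophagy and mitophagy: SQSTM1, MAP1LC3A, MAP1LC3B, GABARAPL1, BNIP3, BNIP3L, ULK1, BECN1, ATG5 and WIPI1. They were taken by symbol from a deposited count table of 9418 gene rows, all 10 have a row, and all 10 were among the 9411 genes tested. The table comes from bulk RNA sequencing of skeletal muscle of Bama minipigs, a small pig breed, after contusion, a blunt injury that leaves the skin closed. There are 37 libraries: 9 are labelled control, and the other 28 were taken at 7 times, 4 libraries at each, every 4 h from 4 to 24 h after injury and again at 48 h. The design text names 8 animals. Which libraries come from the same animal, which muscle was sampled and the animals' age are not given in the sources used here, so p-values measure the spread between libraries. Every library, controls included, carries mechanical damage in its treatment field, so how control muscle was handled is not known.

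Autophagy encloses part of the cytoplasm in a double membrane, the autophagosome, and delivers it to the lysosome for breakdown. The kinase ULK1 and the lipid kinase complex that contains BECN1 start the process, WIPI1 binds the lipid made there, and ATG5 helps to couple proteins of the ATG8 family (MAP1LC3A, MAP1LC3B, GABARAPL1) to the growing membrane. SQSTM1, also called p62, is a receptor that ties ubiquitin-marked cargo to ATG8 proteins and is itself degraded with it. BNIP3 and BNIP3L sit in the outer mitochondrial membrane and act as receptors for mitophagy, the removal of mitochondria by autophagy. In muscle the pathway clears damaged proteins and mitochondria and is known to respond to fasting, exercise and injury. RNA levels of these genes are not a measure of how fast autophagy runs.

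Column totals ran from 9860426 to 22877840 counts, and values are given as CPM, counts scaled to a common library size by the trimmed mean of M values (TMM). Libraries fall into 5 sets that the labels do not name, defined here by their totals and their levels of C1QBP, NDUFAF8 and ND6. The sets are tied to time, so set and time cannot be fully told apart. Set 1 holds all 4 libraries of 16 h, 3 of 8 h and 2 controls. Set 5 holds all 4 of 48 h, 1 of 8 h, 1 of 24 h and 3 controls. Sets 2 and 3 hold the libraries of 4 h, with others of 12, 20 and 24 h, and no control. No control shares a set with any library at 4 h. The 4 libraries at 48 h also split into a pair (replicates 1 and 3) with summed macrophage markers of 934 and 705 CPM and a pair (replicates 2 and 4) with 161 and 186 CPM, against 71.4 to 223 CPM in controls. Of 15 muscle fibre markers 8 were measured, none was at 0, and their sum was 68761 to 118816 CPM in controls. It was 26823 to 44811 CPM at 24 h. In bulk tissue, fewer cells of a type and less RNA per cell cannot be told apart.

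The 10 genes did not move together. A gene is said to have risen or fallen against control where its adjusted p from edgeR's quasi-likelihood test, with Benjamini-Hochberg adjustment over all genes tested, was under 0.05. At 4 h WIPI1 alone fell, when 18.3% of all genes tested changed in either direction. At 8 h SQSTM1 and ULK1 rose and WIPI1 fell, against a background of 54.0%. At 12 h SQSTM1 rose and WIPI1 fell, against 31.0%. At 16 h the genes were those of 8 h, against 53.1%. At 20 h SQSTM1 rose and MAP1LC3A, BNIP3 and WIPI1 fell, against 51.5%. At 24 h SQSTM1, MAP1LC3B, BNIP3L and ATG5 rose and MAP1LC3A, BNIP3 and WIPI1 fell, so that 7 of 10 changed against 53.9%. At 48 h BNIP3L rose and GABARAPL1 fell, against 20.3%.

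Counted over all 7 times, 22 of 70 gene and time pairs passed the test, 11 higher and 11 lower, which is 31.4% against 40.3% over all genes and times. The share of these genes that changed was below the background from 4 to 20 h, above it at 24 h and near it at 48 h (20.0% against 20.3%). Scaled by column totals, 6 of 10 passed at 16 h, where 3645 of 9411 genes rose and 1355 fell. At 20 h 7 then passed (3620 and 1456), and at 48 h 4 passed (3348 genes in all). Those shares were above the background, so the order depends on the scaling. In a joint test of the 7 times 8 of 10 genes passed, as did 83.2% of all genes, and BECN1 (joint adjusted p = 0.0648) and ATG5 (0.0551) did not. The median log2 fold change of the 10 genes lay between -0.18 at 4 h and 0.26 at 24 h, where that of all genes tested was -0.03 and -0.02.

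**Figure D1:**
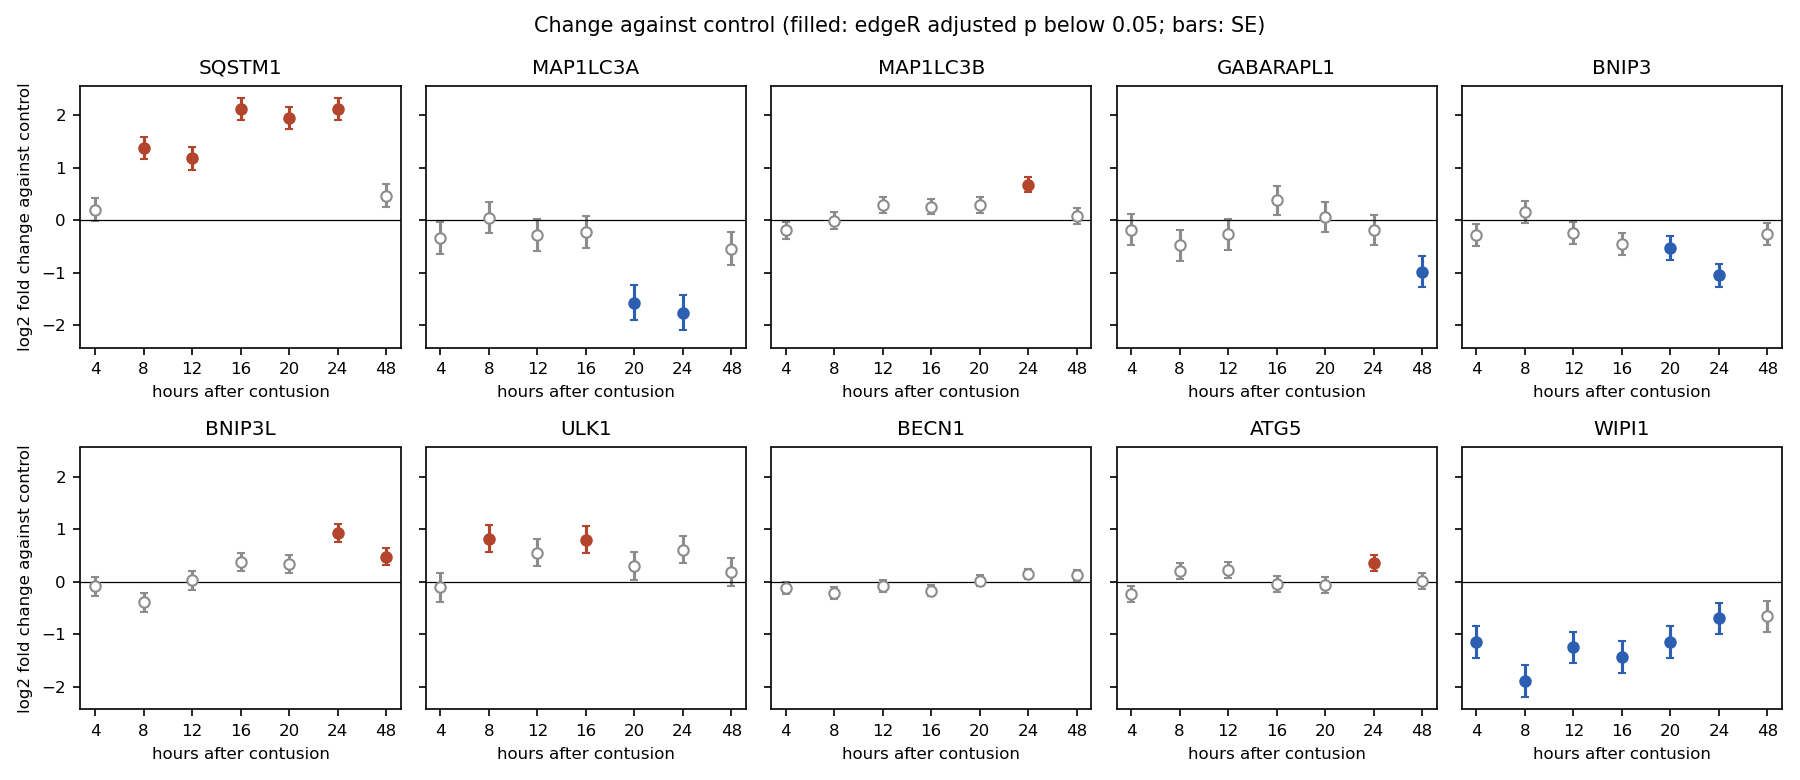
Log2 fold change of each of the 10 genes against control at each time, from the edgeR fit. Bars are standard errors, and filled points have an adjusted p under 0.05. SQSTM1 has the highest point of the set at each time from 8 to 24 h, while WIPI1 lies below 0 at each of the 7 times.

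SQSTM1 (chromosome 2, 78752768 to 78763998 in Sscrofa11.1, from the RefSeq gene table) showed the widest rise of the 10 genes. Control libraries ran from 479 to 1008 CPM with a median of 648. At 4 h the libraries measured 697, 963, 885 and 574 CPM, all within the control range. At 8 h they measured 1796, 2151, 1658 and 1505 CPM, all above every control. At 12 h replicates 1 and 2 stood at 1882 and 2105 CPM, while replicates 3 and 4 stood at 1217 and 955 CPM, the last within the control range. Replicates 1 and 2 belong to library set 4, with fibre marker sums of 59994 and 67169 CPM, and replicates 3 and 4 to set 2, with 102657 and 118717 CPM. The level was highest at 16 h (3054, 2581, 2970.3 and 3275 CPM), 20 h (1924, 2759, 3329 and 2465 CPM) and 24 h (2331, 3510.3, 2373 and 3633 CPM). No difference between neighbours among these 3 times passed (adjusted p = 0.784 and 0.783, edgeR). At 48 h the libraries measured 1412, 781, 979 and 598 CPM, and 3 of the 4 were within the control range.

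The log2 fold change of SQSTM1 against control was 0.20 ± 0.22 (SE) at 4 h (adjusted p = 0.577), 1.38 ± 0.21 at 8 h (3.92e-06) and 1.18 ± 0.22 at 12 h (0.000199). It was 2.12 ± 0.21 at 16 h (6.36e-09), 1.94 ± 0.21 at 20 h (4.35e-08) and 2.12 ± 0.21 at 24 h (5.47e-09). The mean went from 681 ± 167 CPM (SD, n = 9) in controls to 2962 CPM at 24 h. Over the 7 times together only 33 of 9411 genes had a smaller p. No overlap with the controls was seen at 8, 16, 20 and 24 h, where 13.8%, 17.2%, 14.2% and 16.4% of all genes also stood wholly above them.

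Between neighbouring times, SQSTM1 rose from 4 to 8 h by 1.19 ± 0.27 on the log2 scale (adjusted p = 0.00213, edgeR) and from 12 to 16 h by 0.95 ± 0.27 (0.0173). It then fell by 1.65 from 24 to 48 h (SE 0.27, adjusted p = 0.000111), and the libraries of those times did not overlap, which held for 10.5% of all genes in that direction. Over all genes 31.3%, 14.2% and 19.5% changed in these comparisons. With library set as a term in the fit the steps from 4 to 8 h and from 12 to 16 h were 0.81 (adjusted p = 0.539) and 0.71 (0.855), while that from 24 to 48 h was -1.60 (0.00356). Libraries of 4 and 8 h share no set, nor do those of 12 and 16 h. For these steps the set term therefore compares the times only through controls and other times that share their sets. The step from 12 to 16 h also lost its call without 12 h replicate 3 (0.0678) or 4 (0.0876). Against the 2 controls of its own set, the mean of SQSTM1 was 2.06 higher at 16 h on the log2 scale, and against the 4 controls of set 4 it was 1.55 higher in the 2 libraries at 12 h and 2.16 higher in the 2 libraries at 20 h.

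**Figure D2:**
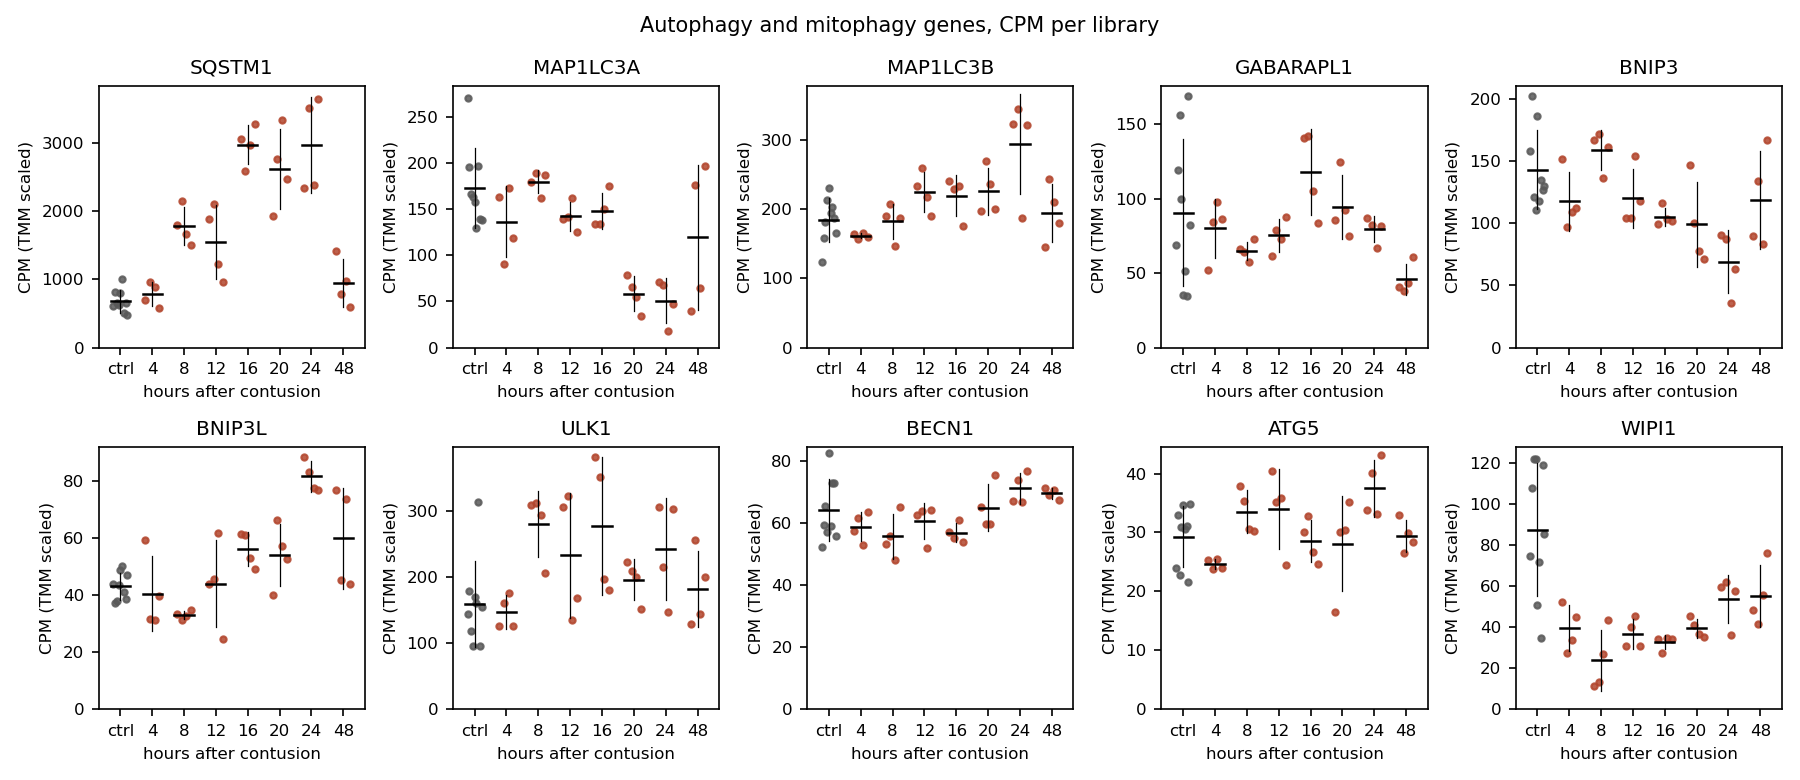
CPM of each of the 10 genes in every library (y axis) by time after injury, with controls in grey and injured muscle in red. Bars are mean ± SD of 9 controls or 4 libraries. SQSTM1 stands at 1924 CPM or more in each library at 16, 20 and 24 h, where the highest control is at 1008 CPM.

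Macrophage markers moved in the same libraries: of 14 tested, the number that rose went from 3 at 4 h through 8, 9, 10, 11 and 11 at the next times to 13 at 48 h. Their sum averaged 128 CPM in controls, 510.0 CPM at 16 h, 469.8 CPM at 24 h and 497 CPM at 48 h. No marker of that list was at 0 in every library. At 48 h the mean macrophage sum was thus near that of 16 h, while SQSTM1 averaged 942 CPM against 2969.9 CPM. Within 48 h the 2 libraries with high macrophage sums had SQSTM1 at 1412 and 979 CPM, and the other 2 at 781 and 598 CPM. Other cell markers moved too. Of 6 neutrophil markers all rose at 8 h (sum 18.1 to 298 CPM, against 1.37 to 12.3 CPM in controls). Of 9 fibroblast markers 8 fell at 8 h and 7 at 20 h (sums of 863 to 3167 and 1463 to 4988 CPM, against 2265 to 8711 CPM). Of 5 adipocyte markers all fell at 20 h (93.8 to 270.4 CPM, against 355 to 1481 CPM). No marker of these lists was at 0 in every library. The part that cell content has in the changes of SQSTM1 and the other genes was not tested.

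Of the ATG8 family members, MAP1LC3A and MAP1LC3B changed in opposite directions at 24 h, and GABARAPL1 did not pass there. MAP1LC3A (chromosome 17, 37957830 to 37959505) measured 129.5 to 271 CPM in controls with a median of 163, and its libraries from 4 to 16 h lay between 91.1 and 189.7 CPM. At 20 h the libraries measured 78.7, 65.5, 55.3 and 34.4 CPM, and at 24 h 71.2, 67.6, 17.9 and 47.4 CPM, all below every control. Against control the gene changed by -1.57 ± 0.33 on the log2 scale at 20 h (adjusted p = 0.000202, edgeR) and -1.76 ± 0.33 at 24 h (5.08e-05). Among all genes 11.8% and 14.7% stood wholly below the controls at these times. From 4 to 16 h no fold change in this fit exceeded 0.34 in size, and the adjusted p values were 0.452 to 0.889. Against the 2 controls of their own set (196 and 271 CPM), the 4 libraries at 16 h were all lower (134 to 175 CPM, -0.65 on the log2 scale). So were 3 libraries at 8 h (-0.4). In the other sets with controls, 2 libraries at 12 h gave -0.16 and 1 at 8 h gave 0.27. With library set as a term the value at 16 h was -0.54 (adjusted p = 0.287). The step from 16 to 20 h was -1.34 ± 0.36 (adjusted p = 0.0412), a step at which 2.16% of all genes changed. That call was lost with library set as a term (-0.62, adjusted p = 0.845). Libraries of 16 and 20 h share no set, so that fit compares them only through controls and other times that share their sets. Against controls of their own sets, MAP1LC3A was -0.65 on the log2 scale at 16 h and -1.38 in the 2 libraries of set 4 at 20 h. The call was also lost when any 16 h library, or 20 h replicate 2, 3 or 4, was left out (0.077 to 0.147).

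MAP1LC3B (chromosome 6, 1919879 to 1941069), the family member most used as a marker of autophagosomes, passed the test at 24 h and at no other time. Controls measured 123 to 231 CPM with a median of 187. At 24 h the libraries measured 323, 345, 188 and 321 CPM, so that 3 stood above every control and replicate 3 near their median. Its log2 fold change at 24 h was 0.68 ± 0.15 (adjusted p = 0.00038, edgeR), and it lay between -0.19 and 0.29 at the other times (adjusted p = 0.106 or more). From 24 to 48 h the gene fell by 0.60 (SE 0.18, adjusted p = 0.02). That call was lost without 24 h replicate 1, 2 or 4 or 48 h replicate 1 or 4 (0.0602 to 0.0757). It was also lost with library set as a term (-0.61, 0.0593) and without both 48 h replicates 2 and 4 (-0.72, 0.0525).

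Because size factors cancel in a ratio of counts within a library, the ratio of MAP1LC3B to MAP1LC3A was followed as well. It was chosen after the values were seen and is read between times, not as a ratio of molecules. Its log2 value averaged 0.10 ± 0.54 (SD, n = 9) in controls, with a range of -1.14 to 0.59. At 20 h the libraries gave 1.33, 2.04, 2.09 and 2.54, and at 24 h 2.18, 2.35, 3.39 and 2.76, all above every control. In exact two-sided permutation tests both differences had p = 0.0014, the smallest possible for 4 libraries against 9, and adjusted p = 0.0049 over 14 tests. The adjustment does not cover the choice of the genes from these same values, so the p-values are no separate support. At 48 h replicates 1 and 3 gave 1.87 and 1.70, and replicates 2 and 4 gave 0.46 and -0.13, within the control range (adjusted p = 0.10, exact permutation test; 0.0318 without 48 h replicate 4).

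GABARAPL1 (chromosome 5, 61758127 to 61767427), a family member linked to later steps of autophagosome growth, varied widely among controls, from 34.4 to 169 CPM with a median of 82.2. Its coefficient of variation there was 54.6%, the highest of the 10 genes. From 4 to 24 h its libraries lay between 52 and 142 CPM, inside the control range. At 48 h they measured 40.6, 38.2, 43.4 and 61.1 CPM, low in that range but not outside it. At that time it was lower by a log2 fold change of -0.98 ± 0.30 (adjusted p = 0.0196, edgeR). It lost its call with library set as a term (-0.60, adjusted p = 0.256) and without 48 h replicate 1 (0.11), 2 (0.0525) or 3 (0.075). The 3 controls of the same set averaged 56.1 CPM against 45.8 CPM at 48 h.

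The mitophagy receptors BNIP3 and BNIP3L also moved apart. BNIP3 (chromosome 14, 140362123 to 140371951), a known target of hypoxia signalling, measured 111 to 202 CPM in controls with a median of 130.2. At 16 h the libraries measured 99.4, 116, 103 and 102 CPM, at 20 h 147, 100.3, 77.3 and 71.4 CPM and at 24 h 90.6, 86.9, 35.9 and 62.9 CPM. Those at 24 h were all below every control, as were those of 14.7% of all genes. BNIP3 fell, with a log2 fold change of -1.05 ± 0.22 at 24 h (adjusted p = 0.000204, edgeR) and -0.53 ± 0.22 at 20 h (0.0374). At 16 h it was -0.45 ± 0.21 (0.0777), and -0.69 (0.0601) with library set as a term. All 4 libraries at 16 h lay below the 2 controls of their set (158 and 202 CPM, -0.78 on the log2 scale). The call at 20 h was lost without control replicate 1, 2 or 5 or 20 h replicate 2, 3 or 4 (0.0511 to 0.164) and with library set as a term (-0.42, 0.184). At 48 h replicates 1 and 3 measured 90.1 and 83.2 CPM, below every control, and replicates 2 and 4 measured 134 and 167 CPM.

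BNIP3L (chromosome 14, 10318688 to 10345689), also called NIX and known for clearing mitochondria from maturing red cells, was steady in controls at 43.2 ± 4.83 CPM (SD, n = 9; range 37.1 to 50.3). At 8 h the libraries measured 33.3, 31.2, 32.7 and 34.7 CPM, below every control, where 12.2% of all genes also stood wholly below. The log2 fold change there was -0.39 ± 0.18 (adjusted p = 0.0695, edgeR) and did not pass. At 24 h the libraries measured 88.7, 83.4, 77.8 and 77.1 CPM, above every control, where 16.4% of all genes also stood wholly above. BNIP3L rose there, with a log2 fold change of 0.92 ± 0.17 (adjusted p = 4.57e-05). At 48 h replicates 1 and 3 measured 76.9 and 73.9 CPM and replicates 2 and 4 measured 45.3 and 43.9 CPM. Its log2 fold change of 0.48 ± 0.17 at 48 h (adjusted p = 0.049) lost its call in 13 of 24 alternatives. Among these, leaving out control replicate 1, 2, 3, 4, 7 or 8 gave adjusted p = 0.0548 to 0.0769, and leaving out 48 h replicate 1 or 3 gave 0.362 and 0.289.

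The log2 ratio of BNIP3L to BNIP3 counts was also chosen after the values were seen, and its p-values carry the same limit. It averaged -1.71 ± 0.36 (SD, n = 9) in controls, from -2.45 to -1.23. At 16 h it was -0.69, -0.92, -0.95 and -1.05, and at 24 h -0.03, -0.06, 1.12 and 0.29, all above every control (adjusted p = 0.0049 at both times, exact permutation test). At 20 h replicate 1 gave -1.87, within the control range, and the other libraries -0.60, -0.43 and -0.44 (adjusted p = 0.0313, exact permutation test). That call was lost without control replicate 1 (0.0566) or without 20 h replicate 2, 3 or 4 (0.0848 to 0.0955). At 8 h the ratio was lower than in controls, with a mean of -2.26 (adjusted p = 0.0424, exact permutation test), a call lost without any of control replicates 1, 3, 4, 6, 7, 8 and 9 or 8 h replicates 1, 2 and 4 (0.0566 to 0.10).

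**Figure D3:**
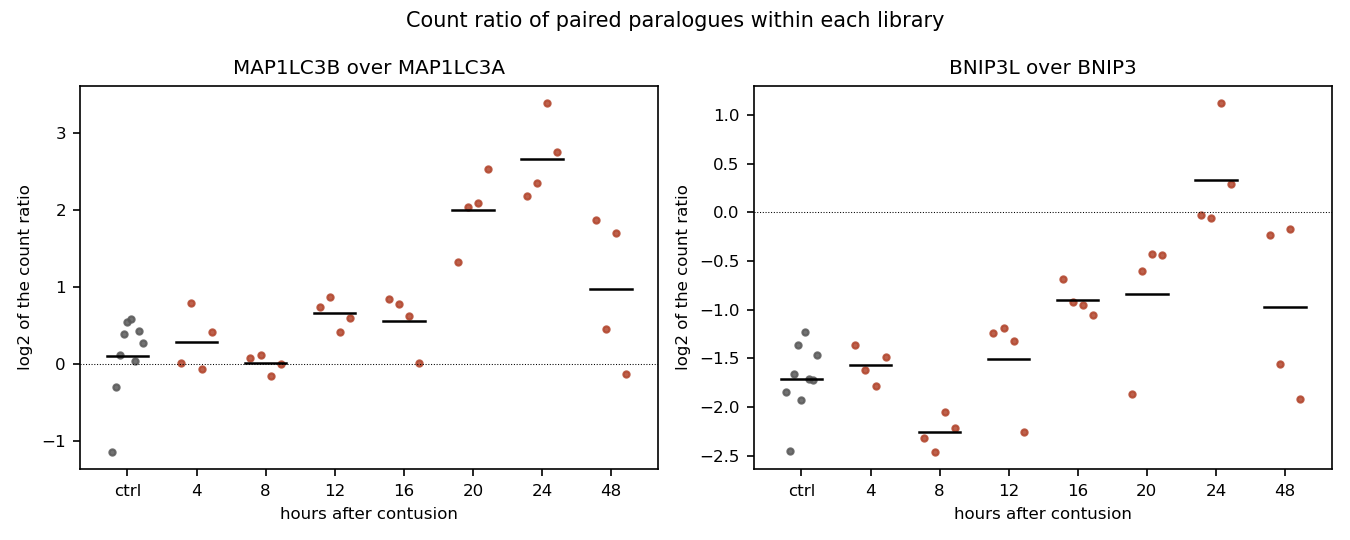
Log2 ratio of counts within each library (y axis) for MAP1LC3B over MAP1LC3A and for BNIP3L over BNIP3, by time, with controls in grey and injured muscle in red. Each point is a library, and horizontal lines are group means. Both ratios are highest at 24 h, with means of 2.67 and 0.33 against 0.10 and -1.71 in controls, and the libraries at 48 h fall into pairs.

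WIPI1 (chromosome 12, 11715332 to 11752009), which binds phosphatidylinositol 3-phosphate on the early autophagosome membrane, fell at each time from 4 to 24 h. Controls measured 34.5 to 122 CPM with a median of 85.5. At 4 h the libraries measured 52.5, 27.6, 33.5 and 44.8 CPM, at 8 h 11.3, 13.4, 27 and 43.4 CPM and at 12 h 30.9, 39.9, 45.5 and 30.6 CPM. At 16 h they measured 34, 27.4, 34.5 and 34.4 CPM, all below every control, though replicate 3 only before rounding. Among all genes 15.9% stood wholly below the controls at that time. At 20 h they measured 45.2, 40.9, 36.6 and 35.1 CPM and at 24 h 59.4, 61.8, 36.3 and 57.7 CPM. All but the lowest control, replicate 7, stood at 50.8 CPM or more.

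The log2 fold change of WIPI1 was -1.15 ± 0.30 at 4 h (adjusted p = 0.0083, edgeR), -1.89 ± 0.31 at 8 h (9.34e-06) and -1.25 ± 0.30 at 12 h (0.00234). It was -1.43 ± 0.30 at 16 h (0.000226), -1.15 ± 0.30 at 20 h (0.00168) and -0.70 ± 0.29 at 24 h (0.0391). At 48 h it was -0.66 ± 0.29 (0.101). The call at 4 h was lost without 4 h replicate 2 (0.0586) and with library set as a term (-1.27, 0.0947). Without the 8 libraries low in NDUFAF8, which keeps 1 library at 4 h, the value was -1.39. The call at 24 h was lost in 12 of 23 alternatives, among them leaving out control replicate 2, 3, 4 or 8 (0.0581 to 0.0674) or 24 h replicate 1, 3 or 4 (0.0536 to 0.146). Also among them were column totals (-0.24, 0.476) and library set as a term (-0.78, 0.11).

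ULK1 (chromosome 14, 23423693 to 23448130), the kinase that AMPK and mTORC1 control, measured 95.6 to 313 CPM in controls with a median of 155. The highest control, replicate 7, stood far above the next at 179 CPM. At 8 h the libraries measured 308, 312, 294 and 206 CPM, and at 16 h 381, 351, 196 and 179.6 CPM, so all exceeded the other 8 controls and 2 of those at 16 h exceeded all 9. ULK1 rose, with log2 fold changes of 0.82 ± 0.26 at 8 h (adjusted p = 0.00943, edgeR) and 0.80 ± 0.26 at 16 h (0.0109). With library set as a term these were 0.59 (0.112) and 0.57 (0.195), and the call at 16 h was also lost without 16 h replicate 1 (0.0837) or 2 (0.0666).

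At 12 h the libraries of ULK1 split into 305 and 322 CPM in replicates 1 and 2 and 135 and 168 CPM in replicates 3 and 4 (log2 fold change 0.55, adjusted p = 0.109), the split by library set and fibre marker sum given above for SQSTM1. At 24 h the log2 fold change was 0.61 (0.0502). Without control replicate 7 both passed, at 0.74 (0.0199) and 0.80 (0.0063). With library set as a term 12, 20 and 24 h passed, at 1.11 (0.0049), 0.95 (0.00853) and 0.85 (0.0298), so the times at which ULK1 is called depend on how the sets are treated, while its fold change was above 0 in both fits from 8 to 24 h. From 4 to 8 h ULK1 rose by 0.93 ± 0.32 (adjusted p = 0.0273). That call was lost without 4 h replicate 1 or 4 or 8 h replicate 1, 2 or 3 (0.0526 to 0.0792), and with the set term the value was -0.02 (0.992). Libraries of 4 and 8 h share no set, so the set term compares them only through other groups that share their sets.

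BECN1 (chromosome 12, 20041914 to 20054249), the core of the class III phosphatidylinositol 3-kinase complex, passed at no time. Its libraries lay between 48.2 and 82.7 CPM throughout, and its fold changes between -0.21 and 0.15 on the log2 scale (unadjusted p = 0.0631 or more, edgeR). Scaled by column totals it passed at 20, 24 and 48 h, at 0.37, 0.64 and 0.49, where the median over all genes was itself 0.29, 0.46 and 0.34. The mean coefficient of variation within a group was 9.09%, the lowest of the 10 genes, against a median of 22.3% over all genes tested. ATG5 (chromosome 1, 72343950 to 72520402), which with ATG12 forms the enzyme that attaches ATG8 proteins to lipid, measured 21.6 to 34.9 CPM in controls. At 24 h its libraries measured 33.8, 40.1, 33.2 and 43.1 CPM (log2 fold change 0.36 ± 0.15, adjusted p = 0.0402, edgeR). That call was lost with library set as a term (0.38, 0.142), with the 2 groups fitted alone (0.0599) and without control replicate 1, 3 or 8 or 24 h replicate 2 or 4 (0.0666 to 0.165).

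At 48 h the split between the libraries touched several of these genes. MAP1LC3A measured 39.8 and 65.1 CPM in replicates 1 and 3, below every control, and 176 and 197 CPM in replicates 2 and 4. The fibre markers summed to 25186 and 37455 CPM in the first pair and 89990.5 and 70107 CPM in the second. With all 4 libraries SQSTM1 was 0.47 against control (adjusted p = 0.131, edgeR), MAP1LC3A -0.54 (0.222) and BNIP3 -0.27 (0.383), and none of these passed. Without replicates 2 and 4, a choice made after seeing the data, 5 of the 10 genes passed in place of 2. SQSTM1 was then 0.81 (adjusted p = 0.0142, edgeR), MAP1LC3A -1.72 (0.000335), BNIP3 -0.73 (0.0343), GABARAPL1 -1.11 (0.0322) and BNIP3L 0.80 (0.00215). From 24 to 48 h MAP1LC3A rose by 1.22 ± 0.36 (adjusted p = 0.0148) and BNIP3 by 0.78 ± 0.25 (0.0251) over all 4 libraries. Without replicates 2 and 4 these were 0.04 (0.965) and 0.33 (0.554). With library set as a term they were 1.18 (0.0956) and 0.77 (0.135). They also lost their calls without 48 h replicate 2 or 4 or 24 h replicate 3 (0.063 to 0.154), as did BNIP3 without 24 h replicate 4 (0.0759). The part of cell content in the 48 h values was not tested.

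The spread of GABARAPL1 and WIPI1 among controls went with MYH7, the slow-fibre myosin heavy chain. Control replicates 5, 6 and 7 had the lowest MYH7 (6906, 6585 and 2451 CPM), the lowest GABARAPL1 (35.1, 51.7 and 34.4 CPM) and the lowest WIPI1 (50.8, 71.8 and 34.5 CPM). Control replicate 8 had the highest MYH7 (39021 CPM) and GABARAPL1 (169 CPM), with WIPI1 at 119 CPM. ULK1 ran the other way in these libraries, at 313 CPM in control replicate 7 and 96 CPM in control replicate 8. With the fast-fibre gene TNNT3, Pearson r over the 9 controls was -0.9 for GABARAPL1, -0.87 for WIPI1 and 0.72 for ULK1. TNNT3 rose at 4 h (1.09 ± 0.37, adjusted p = 0.0373, edgeR) and passed at no other time. Across the times MYH7 fell from 8 to 48 h, with log2 fold changes of -2.15 ± 0.66 at 8 h (adjusted p = 0.00709, edgeR), -3.91 ± 0.74 at 16 h (6.75e-05) and -4.14 ± 0.75 at 24 h (3.5e-05). At 16 h MYH7 measured 967 to 1582 CPM, beside GABARAPL1 of 83.4 to 142 CPM, WIPI1 of 27.4 to 34.5 CPM and ULK1 of 179.6 to 381 CPM. The order seen among controls did not carry over to that time for GABARAPL1, while WIPI1 was low and ULK1 high there. The part of fibre type in the changes of these genes was not tested.

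**Figure D4:**
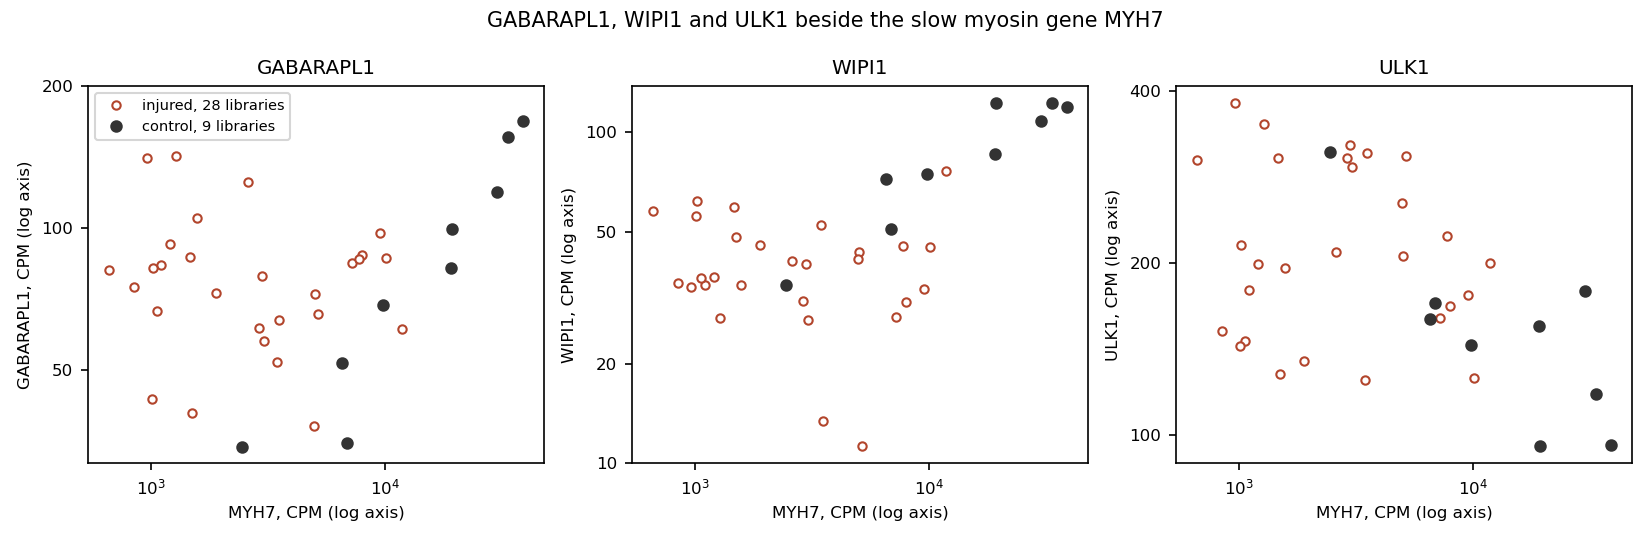
CPM of GABARAPL1, WIPI1 and ULK1 (y axes) against CPM of MYH7 (x axis) in each of the 37 libraries, on log scales, with controls as filled dark points and injured muscle as open red points. Among the 9 controls GABARAPL1 and WIPI1 are lowest in replicates 5, 6 and 7, where MYH7 is 2451 to 6906 CPM, and injured libraries at 16 h reach 142 CPM of GABARAPL1 at MYH7 of 1582 CPM or less.

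Of 95 other genes listed for the pathway 81 were tested. At 4 h 3 rose and 9 fell (14.8% changed), at 8 h 19 rose and 20 fell (48.1%), and at 12 h 10 rose and 18 fell (34.6%). At 16 h 19 rose and 26 fell (55.6%), at 20 h 22 rose and 20 fell (51.9%), and at 24 h 22 rose and 23 fell (55.6%). At 48 h 2 rose and 5 fell (8.64%). These shares lay within 4 percentage points of those over all genes or below them. By function, the lists are given at 24 h, where 2521 of 9411 genes rose and 2550 fell (4538 and 1178 with column totals) and the median log2 fold change was -0.02. Of 14 genes of initiation 6 rose and 1 fell (median 0.25), of 7 of membrane supply 3 rose and 1 fell (0.39), and of 10 of conjugation 3 rose and none fell (0.20). Of 11 cargo receptors 2 rose and 2 fell (-0.11), and of 6 genes of fusion 3 rose and none fell (0.21). Of 10 mitophagy genes 1 rose and 7 fell (-0.64), of 9 transcription regulators 1 rose and 6 fell (-0.82), and of 14 genes of mTORC1 and AMPK control 3 rose and 6 fell (-0.24).

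VMP1, an endoplasmic reticulum membrane protein needed for autophagosome formation, was the only listed gene to pass at all 7 times. Controls measured 27.7 to 40.6 CPM. At 4 h the libraries measured 31.4, 118, 159 and 50.5 CPM, at 8 h 162, 136, 124 and 75.7 CPM and at 48 h 124, 40.5, 96.6 and 29.2 CPM. Every library from 8 to 24 h stood above the controls. Of all genes 13.8%, 6.04%, 17.2%, 14.2% and 16.4% did so at 8, 12, 16, 20 and 24 h. VMP1 rose, with log2 fold changes of 1.46 ± 0.31 at 4 h (adjusted p = 0.00207, edgeR), 1.93 ± 0.31 at 8 h (7.06e-06) and 1.16 ± 0.32 at 48 h (0.00988). With library set as a term the value at 4 h was 1.5 (0.0825). At 48 h the call was lost without replicate 1 (0.204) or 3 (0.0824), in which VMP1 was high.

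Other genes rose at some of the times. BAG3, a co-chaperone that steers damaged muscle proteins to SQSTM1-linked autophagy, measured 957, 872, 879.8 and 558 CPM at 8 h against 144 to 451 CPM in controls (log2 fold change 1.47 ± 0.24, adjusted p = 1.04e-05, edgeR), and passed at no other time. TBK1, a kinase that phosphorylates cargo receptors, rose at 16, 20 and 24 h, most at 24 h (1.09 ± 0.12, adjusted p = 4.69e-08). SESN2, a stress-induced inhibitor of mTORC1, rose by 1.13 ± 0.34 at 8 h (0.00587), 1.32 ± 0.33 at 20 h (0.00151) and 1.11 ± 0.34 at 48 h (0.0192) from a low level, 1.18 to 3.35 CPM in controls. FOXO1, a transcription factor that induces autophagy genes, rose by 1.04 ± 0.19 at 16 h (4.7e-05) and passed at no other time. DEPP1, a FOXO-responsive gene, rose by 1.65 ± 0.42 at 4 h (0.00776), 1.36 ± 0.42 at 8 h (0.00766) and 1.75 ± 0.42 at 12 h (0.00258). Its controls ran from 20.9 to 62.1 CPM. At 4 h the DEPP1 libraries measured 25.8, 169, 223 and 57.7 CPM, and at 8 h the lowest measured 42.4 CPM, so both times overlapped the controls. RAB7A, a small GTPase of late endosomes, rose by 0.63 ± 0.11 at 4 h (0.000311), 0.60 ± 0.11 at 8 h (4.53e-05) and 0.62 ± 0.11 at 12 h (0.000162), when every library stood above the controls. So did the libraries of 215 of 9411 genes at 4 h, 13.8% at 8 h and 6.04% at 12 h. RAB7A stayed higher to 24 h, by 0.27 to 0.43 (0.045 or less), and not at 48 h (-0.04, 0.855). With library set as a term the value at 4 h was 0.47 (0.0978).

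TP53INP2, a nuclear protein that binds ATG8 proteins and promotes autophagy in muscle, showed the deepest fall among the pathway genes named. Controls measured 50.1 to 331 CPM, libraries at 20 h 25.4, 17.5, 12.4 and 10.8 CPM and libraries at 24 h 23.1, 12.6, 8.72 and 10.4 CPM. Against control the log2 fold change was -3.47 ± 0.47 at 20 h (adjusted p = 9.68e-07, edgeR) and -3.74 ± 0.48 at 24 h (2.97e-07). At 48 h the libraries measured 29.2, 78, 42.1 and 215 CPM.

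Of the mitophagy list NIPSNAP2 passed as lower from 4 to 24 h and PINK1 from 8 to 48 h, while TBK1 of that list rose. NIPSNAP2, a mitochondrial protein that recruits autophagy receptors, went from 524 CPM in controls to 170.3 CPM at 20 h (-1.62 ± 0.29, adjusted p = 4.01e-05, edgeR) and 163 CPM at 24 h (-1.69 ± 0.29, 2.2e-05). PINK1, the kinase that marks damaged mitochondria, went from 598 CPM to 273 CPM at 16 h (-1.13 ± 0.28, 0.00136) and 202 CPM at 24 h (-1.57 ± 0.29, 4.89e-05). Its controls ran from 379.9 to 892 CPM. At 20 h PINK1 measured 592, 342, 279.9 and 226 CPM, with replicate 1 inside that range. At 48 h it measured 131, 372, 185 and 628 CPM, lowest in replicates 1 and 3 and with replicate 4 inside that range. Outside that list, at 8 h ATG10, the enzyme that joins ATG12 to ATG5, fell by 1.57 on the log2 scale (adjusted p = 2.76e-05; also lower at 16 and 20 h), and SESN1, a sestrin like SESN2, fell by 1.55 (8.5e-05; also lower at 16 and 24 h). ATG4C, a protease that processes ATG8 proteins, fell by 1.35 at 8 h (6.17e-06) and 1.00 at 12 h (0.000857), and was also lower at 16 and 20 h. Fibre marker genes fell in the same period, 4 of 8 at 16 h, 3 of 8 at 20 h and 5 of 8 at 24 h. Those of slow fibres, MYH7 and TNNT1, and DES fell at each of these times. The fast-fibre genes TNNT3 and TNNC2 passed at none of them (-0.42 and -0.57 at 24 h, adjusted p = 0.381 and 0.257, edgeR). The part of fibre genes in the falls of the pathway genes was not tested.

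**Figure D5:**
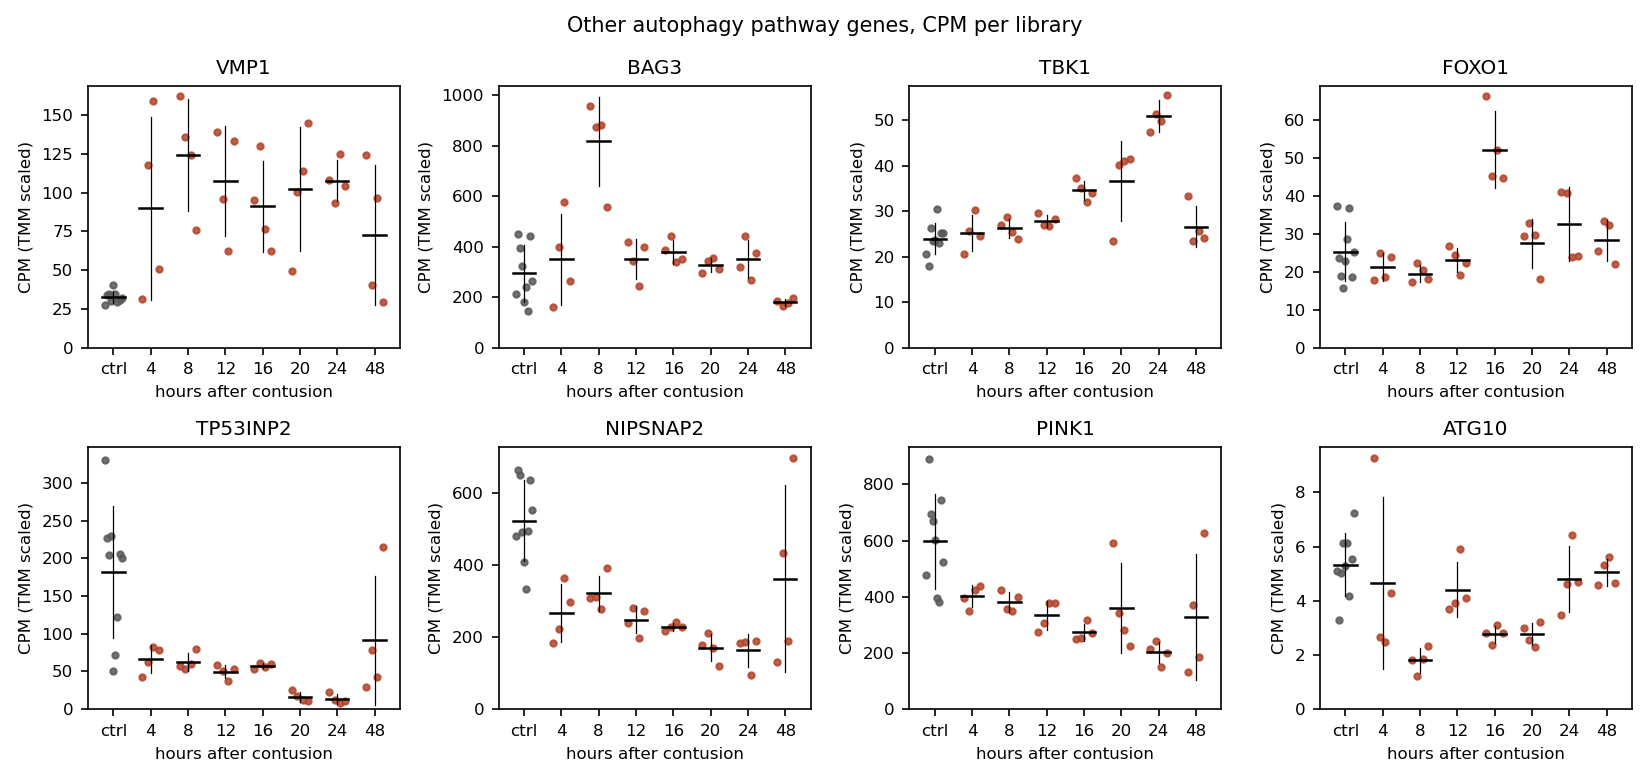
CPM of 8 other autophagy genes named in the text in every library (y axis) by time after injury, with controls in grey and injured muscle in red. Bars are mean ± SD. Every VMP1 library from 8 to 24 h is above the highest control at 40.6 CPM, and every TP53INP2 library at 20 and 24 h is below the lowest control at 50.1 CPM.

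Over the 37 libraries the genes whose log2 CPM followed SQSTM1 most closely were SMG9 (Pearson r = 0.95) and WTAP (0.94). For MAP1LC3A they were COQ10A (0.93) and PGP (0.92), for WIPI1 TXNRD2 (0.91) and BFAR (0.90), and for BNIP3L OSTM1 (0.90) and SPG21 (0.88). For BNIP3 they were NFYC (0.87) and BTBD2 (0.86), for GABARAPL1 KIAA1217 (0.85) and ABHD4 (0.77), and for ULK1 GPCPD1 (0.79) and FOXK1 (0.78). The closest to BECN1 was DIABLO (0.77), to MAP1LC3B MOSPD1 (0.77) and to ATG5 EIF3M (0.72). These values describe libraries that share times, sets and cell content and carry no test.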

How the data were processed

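Total RNA of skeletal muscle was sequenced in 37 libraries. The authors deposited a table of raw counts per gene symbol. Per the submitters' processing notes the tools named include Trimmomatic, HISAT2 2.2.1 and HTSeq, with the build Sscrofa11.1. Strand use and the treatment of reads shared with near-identical copies are not given in the sources used here. No row has a maximum below 101 counts, so the table holds a selected part of each library, whose depth limits precision to counting error of that part.

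Counts were tested with edgeR 4.0.16 in R 4.3.3: TMM scaling, filterByExpr (9411 of 9418 rows kept), a robust quasi-likelihood fit over all 8 groups without covariates and Benjamini-Hochberg adjustment over all genes, with a threshold of 0.05. The SE is the log2 fold change divided by the square root of F. Count ratios within libraries used a pseudocount of 0.5 and exact permutation tests. The scripts were tested on simulated data. Alternatives were RLE size factors, column totals, no filter, a filter of 10 CPM in 4 libraries, DESeq2 1.42.0, limma-voom (limma 3.58.1), a replicate block, a fit of the 2 groups alone, library set as a term and each library left out. Leaving out 48 h replicates 2 and 4, leaving out the 8 libraries low in NDUFAF8 and the count ratios were added after seeing the data.

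The genes, the pathway list and the marker lists were chosen with earlier results of these data known. Other pathway genes are named where they were among the 2 largest rises or 2 largest falls at a time, reached a group mean of 5 CPM and did not overlap the 9 controls, or passed at all 7 times. For likeness, the 2 genes with the highest Pearson r were taken, of log2 CPM with a prior count of 2. Replicate pairs all differed beyond sampling noise (lowest chi-square per degree of freedom 16.1 over 78 pairs). No sequences were used here.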

Additional observations from a re-analysis of the deposited data

Results flagged for a closer look

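Of 80 groups of libraries examined for the 10 genes, 8 had a library that stood apart from the rest of its group by Dixon's test, where chance gives about 1 in 20. These were MAP1LC3A in control replicate 1 (271 CPM, the next at 197), ULK1 in control replicate 7 (313 CPM, the next at 179) and ULK1 in 8 h replicate 4 (206 CPM, the next at 294). MAP1LC3B stood apart in 16 h replicate 4 (175 CPM, the next at 229.9) and 24 h replicate 3 (188 CPM, the next at 321). WIPI1 did so in 16 h replicate 2 (27.4 CPM, the next at 34) and 24 h replicate 3 (36.3 CPM, the next at 57.7), and BECN1 in 12 h replicate 3 (51.9 CPM, the next at 62.8). The library at 24 h numbered 3 is low in both MAP1LC3B and WIPI1.

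Neighbouring times differed by edgeR's quasi-likelihood test of the difference itself in 8 cases. From 4 to 8 h SQSTM1 rose by 1.19 on the log2 scale (adjusted p = 0.00213) and ULK1 by 0.93 (0.0273). From 12 to 16 h SQSTM1 rose by 0.95 (0.0173), and from 16 to 20 h MAP1LC3A changed by -1.34 (0.0412). From 24 to 48 h SQSTM1 changed by -1.65 (0.000111), MAP1LC3B by -0.60 (0.02), MAP1LC3A by 1.22 (0.0148) and BNIP3 by 0.78 (0.0251).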

How the results depend on the processing

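Against control, the calls of SQSTM1 from 8 to 24 h, of WIPI1 from 8 to 20 h, of MAP1LC3A at 20 and 24 h and of MAP1LC3B, BNIP3 and BNIP3L at 24 h held under each of their 23 alternatives. SQSTM1 at 24 h ranged from 2.00 to 2.59, WIPI1 at 8 h from -2.35 to -1.65 and MAP1LC3A at 24 h from -2.0 to -1.32. Of all single-gene values, 2321 kept their side of the threshold (a sign change with no call in either fit is counted here), 121 lost a call, 48 gained a call and 1 changed sign, ULK1 from 4 to 8 h (-0.02 with library set as a term). At 4 h no control shares a library set, nor does any library of 8 h, and 48 h rests on libraries that split into pairs.

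Scaling by column totals lowered the median log2 fold change, to -0.18 at 4 h and -0.13 at 8 h, and raised it later, to 0.31, 0.29, 0.46 and 0.34 at 16, 20, 24 and 48 h (between -0.07 and -0.02 with TMM). Rises made up 50.4% of calls at 4 h with TMM and 20.9% with totals. For 16, 20, 24 and 48 h the shares were 47.6%, 49.2%, 49.7% and 63.2% with TMM and 72.9%, 71.3%, 79.4% and 91.1% with totals. Of the 10 genes 6 then passed at 16 h (3 in the reported fit), 7 at 20 h (4), 4 at 48 h (2) and 2 from 12 to 16 h (1), with 3348 of all genes at 48 h (1906). At 48 h RLE size factors left 1 of the 10 genes and limma-voom 0.

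The 2 groups fitted alone gave 5 of the 10 genes at 16 h, 0 at 48 h and 2 from 24 to 48 h (4 reported), with 932 of all genes at 48 h. With library set as a term 0 of the 10 genes passed at 4 and 48 h and in the steps 4 to 8 h, 12 to 16 h and 16 to 20 h. From 24 to 48 h 1 passed. Over all genes 259 passed at 4 h (1721 reported), 2575 at 16 h (4995) and 1108 at 48 h. In each of the steps with 0 the compared times share no set, and 4 h shares none with controls. The set term makes those comparisons only through other groups that share their sets. Without the 8 libraries low in NDUFAF8 the counts were 0 at 4 h and in the steps 4 to 8 h, 12 to 16 h and 16 to 20 h and 5 at 16 h, with 658 of all genes at 4 h. Without 48 h replicates 2 and 4 they were 5 at 48 h, with 3448 of all genes, and 1 from 24 to 48 h.

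Same-numbered libraries of different groups did not deviate together (median r = 0.03 over 112 pairs, -0.01 for other numbers), so the numbers were not taken to pair the samples. With the replicate number as a block 2 of the 10 genes passed from 12 to 16 h and 0 from 16 to 20 h.

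With each library left out in turn, the counts of the 10 genes for the 7 times in order were 0 to 1, 3 to 4, 2 to 3, 2 to 3, 3 to 5, 5 to 8 and 0 to 5, and 7 to 10 over the times together. For the 6 neighbouring pairs of times in order they were 1 to 4, 0 to 1, 0 to 1, 0 to 1, 0 and 1 to 4. Counts over all genes for the 7 times in order were 608 to 1954, 4202 to 5213, 1827 to 3046, 4107 to 5048, 3928 to 4958, 4468 to 5042 and 368 to 2732. The lowest came without 4 h replicate 2, 12 h replicate 1 and 48 h replicate 1 at those times. The cause of these changes was not tested.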
